A study of Homo sapiens with 24 samples.

Results

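The transcripts described here are those of 10 genes that drive or restrain the passage of a cell from G1 into S phase: the D-type cyclins CCND2 and CCND3, the E-type cyclins CCNE1 and CCNE2, cyclin A (CCNA2), the cyclin-dependent kinases (CDKs) CDK2, CDK4 and CDK6, and the CDK inhibitors CDKN1B and CDKN2C. They were picked by name, with earlier results of these data known, and are 10 of the 23354 genes in the deposited table of read counts. All 10 passed the filter on low counts in both cell lines. MV4-11 and KG-1a are established human acute myeloid leukemia (AML) lines, both labelled wild type (WT) and both grown in Iscove's medium with fetal bovine serum and antibiotics. Cells of each line were left untreated, exposed to 1 μM 8-chloro-adenosine (8CA) or exposed to 1 μM 8-amino-adenosine (8AA), and RNA was sequenced at 8 h and at 24 h, with 2 libraries in each of the 12 groups. The hours of the untreated libraries are given by the sample titles only. Each line is 1 model of the disease, and nothing in the labels says whether libraries A and B of a group came from separate cultures, so the p-values measure the spread between these libraries, which may be technical.

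Passage into S phase is controlled by CDKs, which act only when bound to a cyclin. D-type cyclins with CDK4 or CDK6, and then E-type cyclins with CDK2, phosphorylate the retinoblastoma family of proteins and so release the E2F transcription factors, which turn on genes for DNA replication and some of the cyclins themselves. CDKN2C (p18) binds CDK4 and CDK6, CDKN1B (p27) mainly restrains cyclin E-CDK2 and cyclin A-CDK2, and CDK6 is the D-cyclin kinase known for its part in hematopoietic and leukemic cells. The adenosine analogs 8CA and 8AA differ from each other in what their base bears, chlorine in the first and an amino group in the second.

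The libraries held between 18633963 and 24520078 counted reads, with a median of 21402883. Replicates of a group differed by more than counting noise, with a chi-square per degree of freedom of at most 5.20, except in KG-1a under 8AA at 24 h, where it was 12.25. That pair stands apart, and which of its libraries is the unusual one cannot be told from 2 libraries. MV4-11 carried the monocytic marker LYZ (2047 RPKM, reads scaled by exon length and library size, in untreated cells at 24 h) and the progenitor receptor FLT3 (126 RPKM), with CD34 at 0.013 RPKM. KG-1a carried CD34 at 115 RPKM and had MEIS1 at 0 RPKM. Of 10 markers of T, B, erythroid, epithelial and fibroblast cells, 9 stayed at or below 0.805 RPKM in every group. The exception was CD3E, at 18.4 RPKM in untreated KG-1a and 36.7 RPKM under 8AA at 24 h, beside the other T cell marker CD8A at 0.0401 and 0.0422 RPKM, and its part in the results was not tested. In bulk RNA, fewer cells that use a gene and less of its RNA in each cell cannot be told apart.

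Promoter windows of RefSeq (GRCh38.p14, 250 bases before to 50 bases after a transcript start) were matched by symbol to 7 of the 10 genes, in 12 windows. CCND3, CCNE1 and CDK4 were called lower with both analogs at 24 h in both lines, and the windows of CCND3 are not printed. The windows printed here belong to CCNE1, to CDK4, to CCNA2, and to CDKN2C, which moved in opposite directions with the analogs in KG-1a. Each is written 5′ to 3′ along the gene's strand, with capitals marking the motif matches named after them.
CCNE1, chr19:29811741-29812040, plus strand: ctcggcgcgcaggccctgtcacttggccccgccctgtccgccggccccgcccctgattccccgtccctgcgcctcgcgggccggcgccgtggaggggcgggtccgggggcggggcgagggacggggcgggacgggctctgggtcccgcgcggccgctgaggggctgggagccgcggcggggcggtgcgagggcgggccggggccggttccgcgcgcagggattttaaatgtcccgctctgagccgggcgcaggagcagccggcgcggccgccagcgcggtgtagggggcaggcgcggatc
CCNA2, chr4:121823834-121824133, minus strand: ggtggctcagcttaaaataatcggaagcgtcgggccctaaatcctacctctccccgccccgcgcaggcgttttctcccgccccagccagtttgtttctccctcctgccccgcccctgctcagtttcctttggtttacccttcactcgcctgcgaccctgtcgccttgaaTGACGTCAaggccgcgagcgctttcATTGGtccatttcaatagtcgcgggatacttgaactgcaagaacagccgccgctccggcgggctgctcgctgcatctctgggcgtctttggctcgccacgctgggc
CDK4, chr12:57752261-57752560, minus strand: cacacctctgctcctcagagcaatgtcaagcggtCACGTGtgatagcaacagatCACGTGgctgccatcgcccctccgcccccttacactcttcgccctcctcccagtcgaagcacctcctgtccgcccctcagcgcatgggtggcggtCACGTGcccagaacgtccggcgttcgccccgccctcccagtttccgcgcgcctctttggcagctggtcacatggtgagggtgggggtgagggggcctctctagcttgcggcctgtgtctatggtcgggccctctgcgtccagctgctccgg
CDKN2C, chr1:50968456-50968755, plus strand: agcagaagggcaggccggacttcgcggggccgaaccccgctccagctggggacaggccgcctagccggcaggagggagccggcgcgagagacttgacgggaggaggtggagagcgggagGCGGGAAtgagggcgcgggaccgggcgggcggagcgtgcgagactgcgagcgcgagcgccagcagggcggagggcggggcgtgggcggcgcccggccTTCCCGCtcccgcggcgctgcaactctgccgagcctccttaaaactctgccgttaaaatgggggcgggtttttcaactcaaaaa
In the CCNA2 window the capitals are TGACGTCA, the cyclic AMP response element, and ATTGG, the reverse complement of CCAAT. In CDK4 they are 3 copies of the E-box CACGTG. In the CDKN2C window they are TTCCCGC and its reverse complement GCGGGAA, a 7-base core of E2F sites. CDKN2C also had other windows, not printed here, which held no E2F core. Each of those held CACGTG, and the window farthest downstream also held CCAAT. The CCNE1 window held none of the searched letters. Searched on both strands, TGACGTCA was in 1.85% of the 35116 windows of all genes, CACGTG in 7.26% and CCAAT in 34.6%. The 8-base E2F spellings TTTCCCGC, TTTCGCGC, TTTGCCGC and TTTGGCGC were in 3.31% of all windows, and the 7-base cores, which are these spellings without their first letter, in 13.0%. TTTGAA was in 15.2% of all windows. Among the 7 genes, CCAAT was in a window of 4, CACGTG in 3, TGACGTCA in 1 and a 7-base E2F core in 1, while TTTGAA and the 8-base E2F spellings were in 0 of the 12 windows. The 4, 3, 1 and 1 are counts of genes, some with several windows, while the shares are of windows. They are therefore not to be set against each other. The 7-base cores, CCAAT, TGACGTCA and CACGTG were added to the search after these sequences had been seen. A match is a run of letters and not a site shown to be used, and an absent match says only that the letters are not in these windows.

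In untreated cells all 10 genes were transcribed, and the order of their levels differed between the lines. Levels were compared between genes as RPKM, which divides by exon length. At the top in MV4-11 at 24 h were the kinases CDK4, at 114 ± 0.9 RPKM, and CDK6, at 67.6 ± 2.6 (SD, n = 2), followed by CCNA2 at 59.4 ± 2.53. CCND3 followed at 42.4 ± 1.01, CDKN1B at 36.6 ± 3.6 and CDK2 at 32.8 ± 0.341 RPKM. CCNE1 stood at 19.5 ± 0.235, CCNE2 at 15.7 ± 0.277, CCND2 at 11.3 ± 0.243 and CDKN2C lowest, at 9.68 ± 0.569 RPKM. The libraries of neighbours in this order did not overlap at 24 h, and at 8 h only those of CCND3 and CDKN1B did.

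In KG-1a at 24 h the order began with CDK6 at 95.5 ± 3.18 RPKM, ahead of CDK4 at 79.3 ± 3.21 (SD, n = 2). CCNA2 at 59 ± 1.89 and CCND3 at 57.3 ± 3.29 RPKM overlapped between libraries, and CDKN2C was next at 53.8 ± 0.0286. CCNE2 stood at 28.4 ± 1.59, CCND2 at 22.5 ± 0.822 and CDK2 at 21.5 ± 1.38, and the libraries of the last pair overlapped. CCNE1 at 17.7 ± 1.38 and CDKN1B at 16.2 ± 0.273 RPKM were lowest, and changed places at 8 h. CCNA2 and CCND3, and CCND3 and CDKN2C, were the overlapping neighbours at 8 h.

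**Figure D1:**
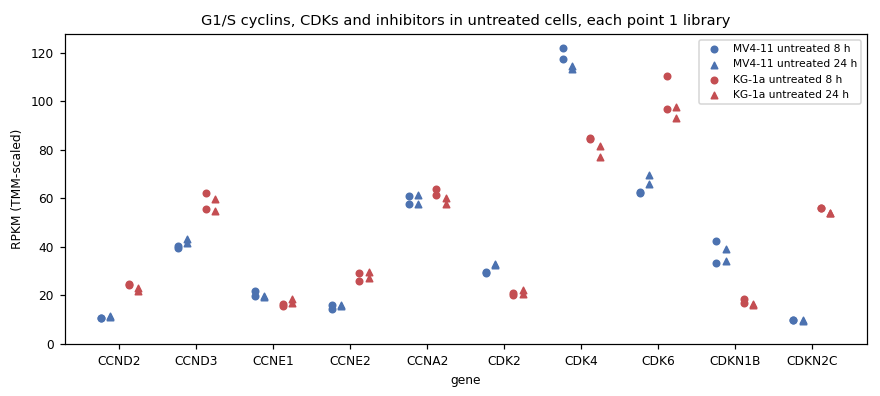
Level of each gene in untreated cells, as RPKM with trimmed-mean (TMM) scaling over all 24 libraries, with each point 1 library, blue for MV4-11, red for KG-1a, circles for 8 h and triangles for 24 h. The lines stand far apart for CDKN2C (9.68 against 53.8 RPKM at 24 h) and lie together for CCNA2 (59.4 against 59).

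The lines differed in 8 of the 10 genes at 24 h and in 9 at 8 h, where 82% and 82.2% of all 14055 genes tested were called, so the count itself is near the background. The inhibitors stood farthest apart and in opposite directions. CDKN2C had 622 and 703 reads in the untreated MV4-11 libraries at 24 h and 3598 and 3334 in those of KG-1a, a log2 difference (MV4-11 minus KG-1a) of −2.47 ± 0.0558 (SE, edgeR adjusted p = 3.4e-22). CDKN1B was higher in MV4-11 by 1.18 ± 0.0995 on the log2 scale (edgeR, adjusted p = 8.84e-11). MV4-11 had less of both D-type cyclins, by −0.99 ± 0.0515 for CCND2 (edgeR, adjusted p = 6.74e-15) and −0.43 ± 0.0632 for CCND3 (edgeR, adjusted p = 1.06e-06). It also had less CCNE2 (−0.86) and CDK6 (−0.50), and more CDK2 (0.61) and CDK4 (0.52). CCNE1 did not pass the test at 24 h (0.14, 95% interval −0.03 to 0.30), but did without the untreated KG-1a replicate B (edgeR, adjusted p = 0.049) and under upper-quartile scaling (0.0479). CCNA2 passed at neither time (0.01, −0.10 to 0.12, at 24 h), although it did at 8 h under library-size scaling (−0.16, edgeR adjusted p = 0.0172). Between untreated cells at 24 h and at 8 h, edgeR called 0 of the 10 genes in either line, against 5.54% of genes in MV4-11 and 4.45% in KG-1a, 1 gene in each line had an unadjusted p under 0.05, and DESeq2 called 0.

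Against the untreated cells of the same time, 8CA at 24 h gave a call in 9 of the 10 genes in MV4-11, 7 lower and 2 higher, where 43.9% of all genes tested were called, 22.7% lower and 21.2% higher. KG-1a gave 7 lower and 2 higher, where 47.4% of all genes were called, 24% lower and 23.4% higher. For 8AA at 24 h the count in MV4-11 was 6 lower and 0 higher (background 29.1%, 15.3% lower and 13.9% higher). That in KG-1a was 4 lower and 2 higher (background 51.9%, 26.6% lower and 25.4% higher), which is near the background. At 8 h, 8AA gave 6 lower and 1 higher in MV4-11 (background 29.2%, 15.6% lower and 13.6% higher) and 5 lower and 3 higher in KG-1a (background 34.7%, 18% lower and 16.7% higher). 8CA at 8 h gave 3 lower and 0 higher in MV4-11 (background 10.4%, 5.77% lower and 4.58% higher). In KG-1a under 8CA at 8 h, edgeR called 0 of the 10 genes where 0.881% of all genes were called, 0.181% lower and 0.7% higher, 3 had an unadjusted p under 0.05, and DESeq2 called 0. The median log2 fold change of the 10 genes was −0.43 and −0.27 in MV4-11 at 24 h for 8CA and 8AA in that order. In KG-1a at 24 h it was −0.30 and −0.11, where the medians of all genes tested lay within 0.0134 of 0. The 8AA median in KG-1a was −0.01 under library-size scaling and −0.04 under upper-quartile scaling, with 4 lower and 2 higher called in either case. The 8CA and 8AA comparisons of a line and time share their untreated libraries.

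The calls were not equally firm. In MV4-11, 8 of 9 calls under 8CA at 24 h, 5 of 6 under 8AA at 24 h, 4 of 7 under 8AA at 8 h and 1 of 3 under 8CA at 8 h were made again without each library of the comparison in turn. In KG-1a these were 6 of 9 under 8CA at 24 h, 6 of 6 under 8AA at 24 h and 4 of 8 under 8AA at 8 h. The KG-1a libraries under 8AA at 24 h are the pair that stood apart (chi-square per degree of freedom 12.25). A fit without 1 of them drops their disagreement from the spread, so the count there does not show firmer calls. CDK6 there was at 0.31 without 8AA replicate A and at −0.16 without 8AA replicate B. Under the 3 other scalings of the libraries no called gene changed direction, and the 3 calls that were lost are given with the genes.

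**Figure D2:**
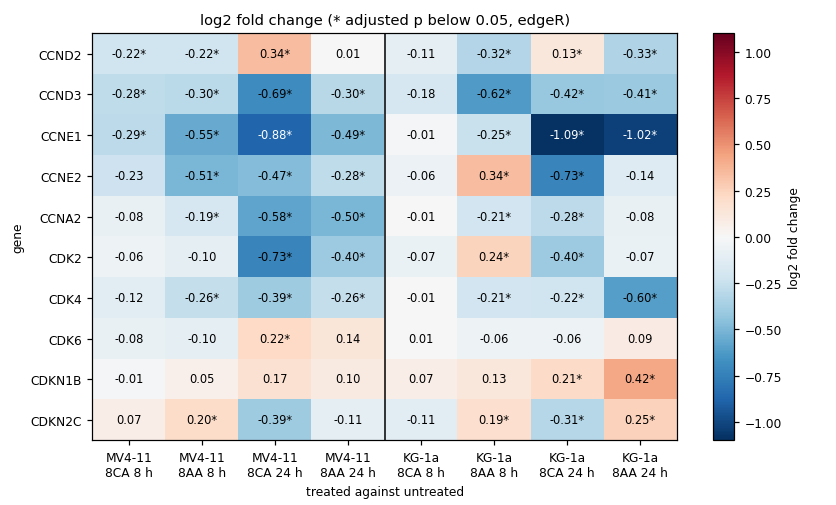
Log2 fold change of each gene against the untreated cells of the same line and time, from edgeR, where blue is lower, red is higher and an asterisk marks an adjusted p below 0.05. CCND3 and CCNE1 are blue with an asterisk in every column but KG-1a under 8CA at 8 h, and the deepest values are those of CCNE1 in KG-1a at 24 h, −1.09 under 8CA and −1.02 under 8AA.

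D-type cyclins couple growth signals to CDK4 and CDK6, and the 2 genes behaved differently. CCND3 (chr6:41902671-42016610, minus strand, in the deposited coordinates) was called lower in 7 of the 8 comparisons and higher in 0. In MV4-11 at 24 h it stood at 134.5 and 139.4 CPM (reads scaled to library size by TMM within the line) untreated, at 83.7 and 86 under 8CA and at 107.4 and 114.7 under 8AA. The 3 groups did not overlap, and 8CA was lowest. The change was −0.69 ± 0.0537 (SE) on the log2 scale under 8CA, to 0.619 of the untreated level (edgeR, adjusted p = 1.14e-07), and −0.30 ± 0.0531 under 8AA (edgeR, adjusted p = 0.000562). In KG-1a at 24 h the libraries were at 190.3 and 206.5 CPM untreated, 152.6 and 144.8 under 8CA and 159.1 and 139.0 under 8AA. Both analogs lowered it there, by −0.42 ± 0.0664 and −0.41 ± 0.0662 (edgeR, adjusted p = 0.000107 and 8.96e-05). At 8 h CCND3 was already lower in MV4-11 under 8CA (−0.28) and 8AA (−0.30). In KG-1a at 8 h it fell to 0.649 of the untreated level under 8AA, from 212.9 and 190.8 to 132.5 and 129.4 CPM (−0.62 ± 0.0665, edgeR adjusted p = 5.22e-06). With 8CA the difference was −0.18 (95% interval −0.32 to −0.04) and did not pass the test (edgeR, adjusted p = 0.235), although it did when the fit held only the 6 libraries of that time (edgeR, adjusted p = 0.0285).

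CCND2 (chr12:4382902-4414522, plus strand) was the D-type cyclin that changed direction with time and analog. In MV4-11 at 8 h it stood at 68.2 and 68.4 CPM untreated, 58.9 and 58.4 under 8CA and 59.3 and 58.2 under 8AA, and it was called lower by −0.22 and −0.22. The 8CA call there was lost without any 1 of the 4 libraries of the comparison (edgeR, adjusted p 0.0699 to 0.0958), and the 8AA call without 8AA replicate B (0.054). At 24 h it was higher under 8CA, at 92.3 and 88.5 CPM against 72.7 and 70.7 untreated (0.34 ± 0.0549, edgeR adjusted p = 0.000154), and under 8AA the libraries (68 and 76.3 CPM) spanned the untreated ones. In KG-1a 8AA lowered it at both times, at 8 h from 165.9 and 162.4 to 131.6 and 131.1 CPM (−0.32 ± 0.0473, edgeR adjusted p = 9.49e-05), and at 24 h from 156.6 and 148.8 to 119.0 and 124.3 CPM (−0.33 ± 0.0478, edgeR adjusted p = 3.29e-05). With 8CA at 24 h it was slightly higher in KG-1a, at 165.7 and 168.3 CPM (0.13 ± 0.0472, edgeR adjusted p = 0.035). That call was lost without any 1 of the 4 libraries of the comparison and by DESeq2 (adjusted p = 0.0681). It was also lost with no filter on low counts (edgeR, adjusted p = 0.0852) and with only the 6 libraries of that time in the fit (0.0947). Processed pseudogenes of both D-type cyclins are annotated in GENCODE and have no entry in the deposited table, so how their reads were counted is not known.

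E-type cyclins activate CDK2 late in G1. CCNE1 (chr19:30302901-30315215, plus strand) was called lower in 7 of the 8 comparisons and higher in 0, and in KG-1a at 24 h its fitted fall was the largest of the 10 genes with both analogs. There it stood at 34.3 and 38.3 CPM untreated (681 and 705 reads), 18.8 and 15.3 under 8CA and 19.2 and 16.4 under 8AA. Both treated groups lay well below both untreated libraries and overlapped each other. The change was −1.09 ± 0.0976 under 8CA, to 0.471 of the untreated level (edgeR, adjusted p = 3.92e-07), and −1.02 ± 0.0962 under 8AA, to 0.492 of it (edgeR, adjusted p = 3.99e-07). CCNE1 in MV4-11 at 24 h was at 37.5 and 37 CPM untreated, 20.7 and 19.9 under 8CA and 26.3 and 26.7 under 8AA, so the analogs separated there. The changes were −0.88 ± 0.0692 under 8CA (edgeR, adjusted p = 1.4e-07) and −0.49 ± 0.0679 under 8AA (edgeR, adjusted p = 8.27e-05). At 8 h in MV4-11 the order was the other way, with 26.5 and 27.9 CPM under 8AA and 32.1 and 33.2 under 8CA against 37.9 and 41.8 untreated. The 8AA change was −0.55 ± 0.0674 (edgeR, adjusted p = 2.53e-05). The 8CA change was −0.29 ± 0.0665 (edgeR, adjusted p = 0.0127). That call was lost without untreated replicate B or 8CA replicate A, and with only the 6 libraries of that time in the fit (edgeR, adjusted p = 0.054).

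In KG-1a at 8 h CCNE1 did not pass the test under 8CA (31.4 and 33.4 CPM against 31.9 and 33.4 untreated, −0.01, 95% interval −0.21 to 0.18). With 8AA it was at 27.6 and 27.5 CPM, called lower by −0.25 ± 0.0918 (edgeR, adjusted p = 0.0462). This call was lost without any 1 of the 4 libraries (edgeR, adjusted p 0.0907 to 0.206), under library-size scaling (0.0801), under upper-quartile scaling (0.0555) and by DESeq2 (0.0696).

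CCNE2, the other E-type cyclin, lies on the minus strand and overlaps INTS8 on the opposite strand by 269 bases. INTS8 had the higher median count, 2621 against 952 for CCNE2. The sources used here do not say whether counting used strand, and reads of the shared bases are uncertain. With 8AA at 8 h CCNE2 moved in opposite directions in the lines. In MV4-11 it was lower (42.4 and 38.4 CPM untreated, 31.4 and 25.6 treated, −0.51 ± 0.0892, edgeR adjusted p = 0.00054), and in KG-1a it was higher, at 95.9 and 100.5 CPM against 73.1 and 82.4 untreated (0.34 ± 0.0703, edgeR adjusted p = 0.00172). At 24 h 8CA lowered it in both lines, to 31.6 and 28.4 CPM against 42.2 and 41.2 in MV4-11 (−0.47 ± 0.0873, edgeR adjusted p = 0.000416) and to 48.8 and 49.2 CPM against 84.2 and 77.8 in KG-1a (−0.73 ± 0.0742, edgeR adjusted p = 1.4e-06). 8AA at 24 h gave 35.3 and 33.4 CPM in MV4-11, called lower by −0.28 (edgeR, adjusted p = 0.0235). That call was lost without any 1 of the 4 libraries (edgeR, adjusted p 0.0613 to 0.138), under library-size scaling (0.0778) and under upper-quartile scaling (0.0515). In KG-1a under 8AA at 24 h it was at 68.5 and 79 CPM, and the second value lies within the untreated range. The difference of −0.14 (95% interval −0.29 to 0.01) did not pass, and without 8AA replicate B it was −0.25 and did (edgeR, adjusted p = 0.00235). With 8CA at 8 h it did not pass in either line (−0.23 and −0.06), although the MV4-11 difference did with no filter on low counts (edgeR, adjusted p = 0.0349).

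Cyclin A2 pairs with CDK2 in S phase and with CDK1 later, and its gene is a classic E2F target. CCNA2 (chr4:122737599-122745088, minus strand) overlaps EXOSC9 on the opposite strand by 578 bases. In MV4-11 at 24 h it was at 156.1 and 166.2 CPM untreated, 109.8 and 106.2 under 8CA and 117.7 and 110.1 under 8AA. Both treated groups were below both untreated libraries, by −0.58 ± 0.0608 (edgeR, adjusted p = 2.68e-06) and −0.50 ± 0.0609 (edgeR, adjusted p = 2.8e-05). In KG-1a at 24 h the untreated libraries were at 175.4 and 167.7 CPM and those under 8CA at 139.8 and 141.8, a fall to 0.821 of the level (−0.28 ± 0.0457, edgeR adjusted p = 0.000112). With 8AA they were at 160.4 and 163.9 CPM, a difference of −0.08 (95% interval −0.18 to 0.01) that did not pass. At 8 h the 8AA groups were lower in KG-1a (−0.21, edgeR adjusted p = 0.00233) and in MV4-11 (−0.19, edgeR adjusted p = 0.0293). The MV4-11 call at 8 h was lost without untreated replicate A or 8AA replicate B. It was also lost under library-size scaling (edgeR, adjusted p = 0.11), under upper-quartile scaling (0.0952) and with only the 6 libraries of that time in the fit (0.0759).

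**Figure D3:**
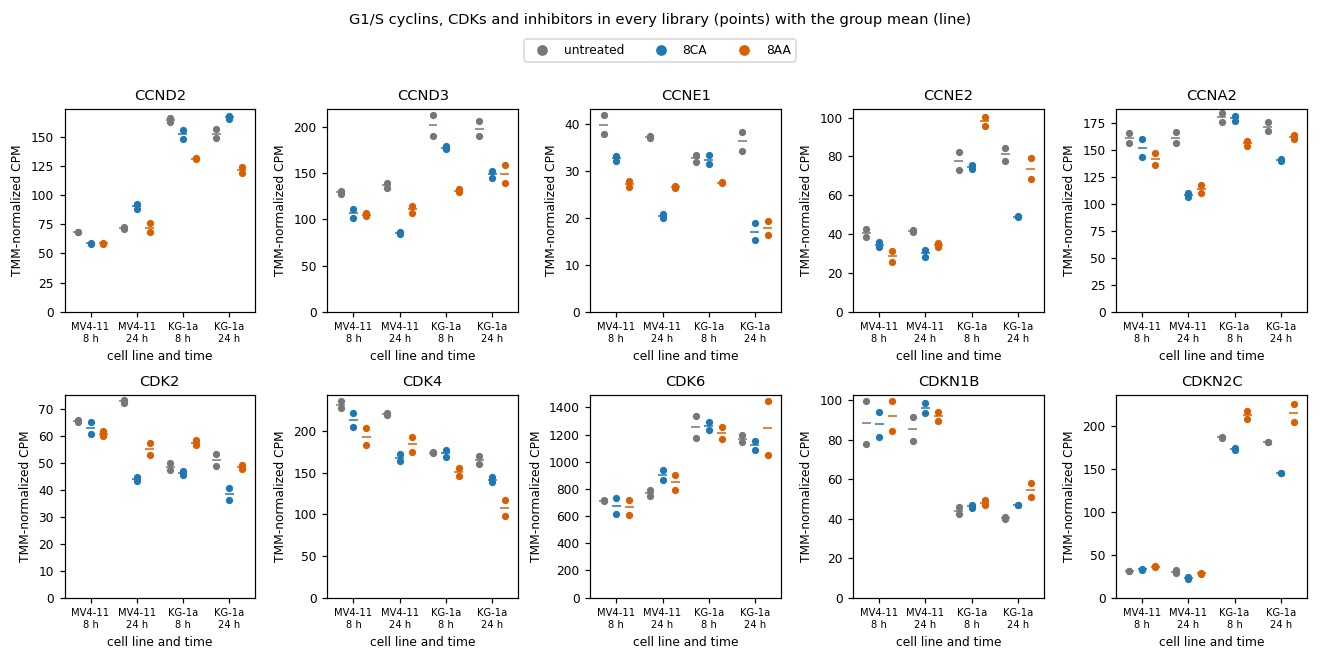
TMM-scaled CPM of each gene in every library, with points for libraries, short lines for the mean of the 2 libraries, gray for untreated, blue for 8CA and orange for 8AA. CPM is scaled within a cell line, so groups are read against the untreated group of the same line and time, as in KG-1a at 24 h, where CDKN2C lies at 145.7 and 146.0 under 8CA, 181.4 and 181.3 untreated and 225.9 and 205.2 under 8AA.

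Among the kinases, CDK4 (chr12:58141510-58146230, minus strand) partners the D-type cyclins. It was called lower in 6 of the 8 comparisons and higher in 0. It overlaps TSPAN31 by 517 bases on the opposite strand and has the annotated pseudogene CDK4P1. In KG-1a at 24 h it was at 160.0 and 169.5 CPM untreated, 139.1 and 144.4 under 8CA and 117.6 and 98.6 under 8AA. The 8AA libraries were lowest although they differed from each other, and the change was −0.60 ± 0.0674 (edgeR, adjusted p = 2.25e-06). The smaller change under 8CA, −0.22 ± 0.0667 (edgeR, adjusted p = 0.0142), did not pass without untreated replicate B (0.121) or 8CA replicate A (0.0967). CDK4 in MV4-11 at 24 h was at 221.7 and 219.8 CPM untreated, 164.0 and 172.4 under 8CA and 175.2 and 193.3 under 8AA. The changes were −0.39 ± 0.0588 (edgeR, adjusted p = 7.1e-05) and −0.26 ± 0.0588 (edgeR, adjusted p = 0.00364). At 8 h 8AA lowered it in MV4-11 (−0.26, edgeR adjusted p = 0.00334) and in KG-1a (−0.21, edgeR adjusted p = 0.0238). The KG-1a call was lost without untreated replicate A (0.0991), untreated replicate B (0.0819) or 8AA replicate B (0.187).

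CDK2 (chr12:56360556-56366568, plus strand), the kinase of cyclins E and A, was called in MV4-11 only at 24 h. It went from 73.4 and 72.5 CPM untreated to 44.9 and 43.3 under 8CA, which is 0.605 of the level (−0.73 ± 0.0564, edgeR adjusted p = 1.14e-07), and to 53 and 57.5 under 8AA (−0.40 ± 0.0557, edgeR adjusted p = 8.45e-05). At 8 h neither analog gave a call there (−0.06 and −0.10). In KG-1a 8CA lowered it at 24 h, from 48.8 and 53.5 to 40.9 and 36.5 CPM (−0.40 ± 0.0687, edgeR adjusted p = 0.000201). With 8AA it did not pass (49.2 and 47.8 CPM, −0.07, 95% interval −0.22 to 0.07). With 8AA at 8 h it was higher, at 56.8 and 58.4 CPM against 49.9 and 47.4 (0.24 ± 0.0661, edgeR adjusted p = 0.00941), a call that was lost without untreated replicate B (0.086) or 8AA replicate B (0.0728).

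CDK6 (chr7:92234235-92465941, minus strand) was called lower in 0 of the 8 comparisons. It was called once, higher in MV4-11 under 8CA at 24 h, where the libraries were at 936.4 and 863.8 CPM against 750.8 and 794.8 untreated (0.22 ± 0.0821, edgeR adjusted p = 0.0401). The groups did not overlap, but the call was lost without untreated replicate A, untreated replicate B or 8CA replicate A. It was also lost by DESeq2 (adjusted p = 0.135) and with all 24 libraries in the fit (edgeR, adjusted p = 0.067). In KG-1a under 8AA at 24 h its libraries were at 1049 and 1447 CPM against 1196 and 1142 untreated. The treated values fell on either side of the untreated ones, the difference was 0.09 (95% interval −0.12 to 0.31), and its direction turned with the library left out. Without 8AA replicate A it was 0.31 (edgeR, adjusted p = 1.08e-05), and without 8AA replicate B −0.16 (edgeR, adjusted p = 0.0121). In the other 6 comparisons its fitted difference lay between −0.10 and 0.14. With 8AA at 24 h in MV4-11 the difference of 0.14 passed with no filter on low counts (edgeR, adjusted p = 0.00892) and with only the 6 libraries of that time in the fit (0.0413).

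The inhibitors did not move as a pair. In the deposited table, the start-to-stop spans of LOC100133331 on the opposite strand and LOC100132062 on the same strand cover CDKN2C (chr1:51433608-51440309, plus strand). Such a span does not show shared exons, as that of the microRNA MIR548AR covers 231707 bases of CDK6. Median counts were 144 for LOC100133331 and 1 for LOC100132062 against 1903.5 for CDKN2C. In KG-1a the analogs parted at 24 h. From 181.4 and 181.3 CPM untreated it went to 145.7 and 146.0 under 8CA (−0.31 ± 0.0498, edgeR adjusted p = 9.61e-05) and to 225.9 and 205.2 under 8AA (0.25 ± 0.049, edgeR adjusted p = 0.00051). Every treated library was outside the untreated range, on opposite sides. 8AA had raised it at 8 h too, to 217.9 and 208.1 CPM from 187.7 and 186.3 (0.19 ± 0.0488, edgeR adjusted p = 0.00741), a call lost without 8AA replicate A (0.0889). In MV4-11, where its level was low, 8CA lowered it at 24 h from 29.1 and 31.7 to 22.2 and 24.2 CPM (−0.39 ± 0.0697, edgeR adjusted p = 0.000305), and 8AA gave 27.9 and 28.7 CPM, which did not pass (−0.11). At 8 h under 8AA it was at 36.5 and 35.8 CPM against 31.6 and 31.1 (0.20, edgeR adjusted p = 0.0317), a call lost without any 1 of the 4 libraries (0.0752 to 0.137) and by DESeq2 (0.129).

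CDKN1B (chr12:12870302-12875305, plus strand) rose in KG-1a at 24 h. It was at 41 and 40.1 CPM untreated, 47 and 46.8 under 8CA and 50.9 and 58.1 under 8AA, so that the 3 groups did not overlap. The rise under 8AA was 0.42 ± 0.0685, to 1.34 times the untreated level (edgeR, adjusted p = 8.97e-05). That under 8CA was 0.21 ± 0.0696 (edgeR, adjusted p = 0.0218). The 8CA call was lost without any 1 of the 4 libraries, with all 24 libraries in the fit (edgeR, adjusted p = 0.117) and with only the 6 of that time (0.0539). In MV4-11 it passed in none of the 4 comparisons, with differences from −0.01 to 0.17. The difference under 8CA at 24 h there did pass with no filter on low counts (0.18, edgeR adjusted p = 0.00891) and with only the 6 libraries of that time in the fit (0.0132). Its untreated MV4-11 libraries were at 99.7 and 77.7 CPM at 8 h and at 79.7 and 91.9 at 24 h, and under 8AA at 8 h the 95% interval reached from −0.17 to 0.28.

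8AA and 8CA were then compared directly, at the same dose, line and time, in 40 differences of a gene, with p-values adjusted over all genes tested. The analogs differed in 1 of the 10 genes in MV4-11 at 8 h (6.66% of all genes tested were called), in 5 at 24 h (21.2%), and in KG-1a in 7 at 8 h (30.4%) and in 7 at 24 h (42%). In KG-1a at 24 h, CCNE2 was higher under 8AA than under 8CA by 0.59 ± 0.074 (edgeR, adjusted p = 1.45e-05) and CDKN2C by 0.56 ± 0.0493 (edgeR, adjusted p = 3.1e-07). CDK2 was higher by 0.33 and CCNA2 by 0.20, while CCND2 was lower by −0.46 ± 0.0475 (edgeR, adjusted p = 1.98e-06) and CDK4 by −0.39 ± 0.0676 (edgeR, adjusted p = 0.000283). The remaining call, CDKN1B (0.22, edgeR adjusted p = 0.017), was lost without 8CA replicate A, 8CA replicate B or 8AA replicate B. With all 24 libraries in the fit it was lost too (edgeR, adjusted p = 0.0935). CCND3 and CCNE1 did not pass there, with 95% intervals of −0.14 to 0.15 and −0.16 to 0.28. For CDK6 the interval was −0.06 to 0.37, and without 8AA replicate A the difference was 0.37 (edgeR, adjusted p = 1.22e-06). With no filter on low counts it passed as well (0.15, edgeR adjusted p = 0.00392).

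In MV4-11 at 24 h, CCND3, CCNE1 and CDK2 were less reduced by 8AA than by 8CA. The differences were 0.39 for CCND3 (edgeR, adjusted p = 0.000135), 0.38 for CCNE1 (edgeR, adjusted p = 0.00135) and 0.33 for CDK2 (edgeR, adjusted p = 0.00094). CDKN2C was higher by 0.29 under 8AA (edgeR, adjusted p = 0.00885), a call lost without 8CA replicate A (0.125) or 8AA replicate B (0.0719). CCND2 was lower under 8AA, by −0.33 (edgeR, adjusted p = 0.000658). CCNA2 (95% interval −0.05 to 0.21), CDK6 (−0.26 to 0.09) and CDKN1B (−0.29 to 0.15) did not pass, and neither did CCNE2 (0.19, 0.01 to 0.38) or CDK4 (0.13, 0.01 to 0.26).

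At 8 h most calls between the analogs were in KG-1a. Relative to 8CA, 8AA gave less CCND3 (−0.44 ± 0.0667, edgeR adjusted p = 0.000163), CCND2 (−0.21, adjusted p = 0.00323), CCNA2 (−0.20, adjusted p = 0.00364) and CDK4 (−0.20, adjusted p = 0.0322). It gave more CCNE2 (0.40 ± 0.0703, edgeR adjusted p = 0.000586), CDK2 (0.32, adjusted p = 0.00199) and CDKN2C (0.30, adjusted p = 0.000301). Of these, CDK4 was lost without any 1 of the 4 libraries (0.056 to 0.225), CCND2 without 8CA replicate B (0.0619) and CCNA2 without 8AA replicate A (0.0511). CCNE1 did not pass (−0.24, 95% interval −0.43 to −0.04), but did with no filter on low counts (edgeR, adjusted p = 0.0229), with all 24 libraries in the fit (0.0307) and with 6 (0.00708). In MV4-11 at 8 h CCNE1 was the 1 gene that passed (−0.26, edgeR adjusted p = 0.0309). It was lost without any 1 of the 4 libraries, by DESeq2 (adjusted p = 0.0993), with all 24 libraries in the fit (edgeR, adjusted p = 0.089) and with 6 (0.1). CCNE2 there (−0.28, edgeR adjusted p = 0.0762) passed without 8AA replicate A (0.0178) and with no filter on low counts (0.0157). For CCND2 and CCND3 the intervals at 8 h in MV4-11 were −0.12 to 0.12 and −0.13 to 0.10.

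**Figure D4:**
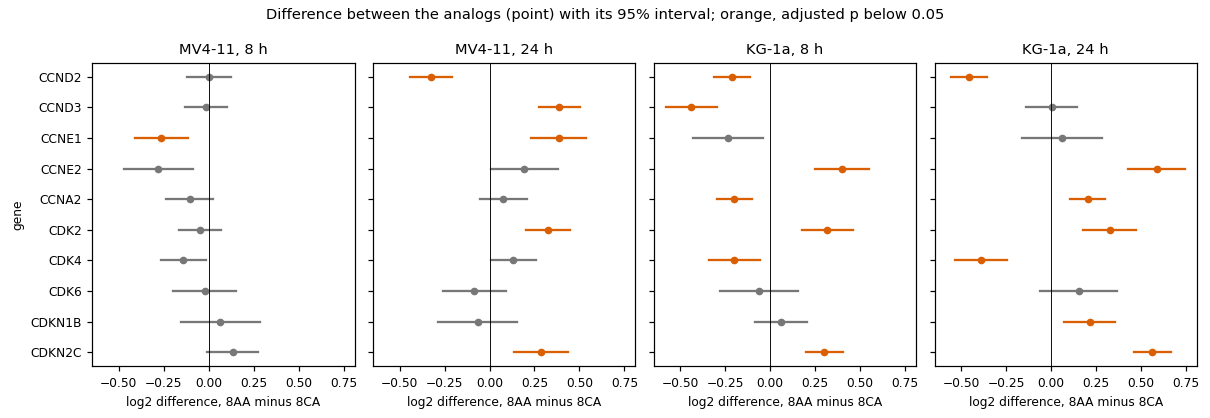
Log2 difference between 8AA and 8CA (8AA minus 8CA) for each gene, line and time, as the edgeR estimate with its 95% interval, where orange marks an adjusted p below 0.05 and gray the rest. Points right of 0 are higher under 8AA, as CCNE2 (0.59) and CDKN2C (0.56) are in KG-1a at 24 h, and points left of 0 are lower, as CCND2 (−0.46) and CDK4 (−0.39) are there.

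The change at 24 h was tested against the change at 8 h within each line and analog. With 8CA it differed in 7 genes in MV4-11 (16.3% of all genes tested called) and in 6 in KG-1a (23.9%). With 8AA it differed in 2 genes in MV4-11 (4.63%) and in 5 in KG-1a (18.3%). CCNE1 in KG-1a under 8CA had the largest fitted difference between the times, from −0.01 at 8 h to −1.09 at 24 h (difference −1.07 ± 0.134, edgeR adjusted p = 4.65e-05). CDK2 in MV4-11 under 8CA went from −0.06 to −0.73 (difference −0.67 ± 0.0794, edgeR adjusted p = 6.27e-05). CCND2 in MV4-11 under 8CA turned from −0.22 to 0.34 (difference 0.55 ± 0.0795, edgeR adjusted p = 0.000294), and CCNE2 in KG-1a under 8AA went from 0.34 to −0.14 (difference −0.47 ± 0.1, edgeR adjusted p = 0.00399). These 4 calls were made again without each library in turn. That of CCNE2 uses the KG-1a pair under 8AA at 24 h, whose disagreement drops out of the spread without 1 of them. It is therefore not shown to be firmer.

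The response in MV4-11 was tested against that in KG-1a with all 24 libraries in the fit. With 8AA the lines differed in 3 genes at 8 h (11.1% of all genes tested called) and in 6 at 24 h (22.3%), and under 8CA at 24 h in 3 (11.2%). With 8CA at 8 h edgeR called 0 (1.15% of all genes), 2 genes had an unadjusted p under 0.05, and DESeq2 called 0. CCNE2 under 8AA at 8 h had the largest difference (MV4-11 minus KG-1a), −0.80 ± 0.117 (edgeR, adjusted p = 7.62e-05), being lower in MV4-11 and higher in KG-1a. With 8AA at 24 h CCNE1 fell less in MV4-11 than in KG-1a (0.55 ± 0.121, edgeR adjusted p = 0.00144). CCNA2 fell in MV4-11, and its difference from KG-1a was −0.40 ± 0.0756 (edgeR, adjusted p = 0.000381). CCND2 (0.36, edgeR adjusted p = 0.000752) and CDKN2C (−0.34, edgeR adjusted p = 0.00294) also differed, with changes of 0.01 and −0.11 in MV4-11 that did not pass and of −0.33 and 0.25 in KG-1a that did. These 5 calls were made again without each library in turn. Those with 8AA at 24 h use the KG-1a pair that stood apart. A fit without 1 of that pair drops its disagreement from the spread, so they are not shown to be firmer.

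The 10 genes were set beside 3 lists of other cell cycle genes, described by their counts and medians. Of 35 other G1/S regulators, 35 passed the filter in MV4-11 and 32 did in KG-1a. In MV4-11 at 24 h 16 were lower and 2 higher under 8CA, and 15 and 0 under 8AA, where 43.9% and 29.1% of all genes tested were called. In KG-1a 9 were lower and 5 higher under 8CA, and 11 and 9 under 8AA, against 47.4% and 51.9% of all genes. Under library-size scaling the 8CA count in MV4-11 became 13 lower and 5 higher, and the 8AA count in KG-1a turned to 9 lower and 12 higher. In KG-1a under 8CA at 8 h edgeR called 0 of 32, 4 had an unadjusted p under 0.05, and DESeq2 called 0. CDC25A, the phosphatase that activates CDK2, was lower at 24 h by −0.77 and −0.52 in MV4-11 under 8CA and 8AA and by −0.55 and −0.49 in KG-1a. E2F1 was lower by −0.70, −0.36, −0.39 and −0.33, its partner TFDP1 by −0.55, −0.35, −0.53 and −0.60, and SKP2, which marks p27 for destruction, by −0.53, −0.29, −0.45 and −0.28 in the same order. Each of these E2F1, TFDP1 and SKP2 values passed, with an edgeR adjusted p of at most 0.00436. TFDP2, a relative of TFDP1, was higher at 24 h in KG-1a under 8CA (0.32) and 8AA (0.60, edgeR adjusted p = 5.77e-08) and in MV4-11 under 8CA (0.22, edgeR adjusted p = 0.0245), while under 8AA in MV4-11 it did not pass (−0.06).

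Of the other CDK inhibitors, CDKN1A was called lower in 3 of its 8 comparisons and higher in 1, CDKN2D (p19) in 0 and 3, and CDKN2A in 0 and 1. CDKN1C was tested in MV4-11 only and called higher in 1 of 4, and CDKN2B was called in 0 of 4. CDKN2D was higher in MV4-11 at 8 h under 8CA (0.41) and 8AA (0.35), and in KG-1a at 24 h under 8CA (0.30, edgeR adjusted p = 0.0414). CDKN2A was higher under 8AA at 24 h in KG-1a (0.65, edgeR adjusted p = 0.048), and CDKN1C under 8AA at 8 h in MV4-11 (1.59, edgeR adjusted p = 0.000588). At 8 h in MV4-11 CDKN1A (p21) was higher under 8CA (0.26) and lower under 8AA (−0.22). It was lower under 8AA at 24 h in both lines, by −0.40 in MV4-11 (edgeR, adjusted p = 0.000124) and −0.72 in KG-1a (edgeR, adjusted p = 0.00158), where its untreated level was 2.13 RPKM against 33.4 in MV4-11. With 8CA at 24 h it did not pass in either line (−0.04 and −0.24). CDKN2A was at 33 RPKM in untreated MV4-11 and 0.592 in KG-1a. CDKN2B and CDKN1C were at 0.322 and 0.53 RPKM in untreated MV4-11 at 24 h and at 0 in KG-1a. CCND1, the third D-type cyclin, was at 0.165 RPKM in MV4-11 and at 0 in KG-1a.

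Replication genes of S phase, many of them E2F targets, were mostly lower at 24 h. Of 34, 33 were lower and 0 higher in MV4-11 under 8CA (median −0.50), 34 and 0 under 8AA (−0.39), and in KG-1a 26 and 1 under 8CA (−0.29). With 8AA in KG-1a they were 24 and 1 (−0.20), which became 14 lower and 4 higher under library-size scaling. Of all genes tested 43.9%, 29.1%, 47.4% and 51.9% were called in these 4 comparisons. At 8 h 8AA gave 22 lower and 0 higher in MV4-11 and 4 lower and 11 higher in KG-1a, where 29.2% and 34.7% of all genes tested were called. In KG-1a under 8CA at 8 h edgeR called 0 of 34, 1 had an unadjusted p under 0.05, and DESeq2 called 0. GINS2, a part of the replicative helicase, was lower at 24 h by −0.73 and −0.47 in MV4-11 under 8CA and 8AA, and by −0.58 and −0.52 in KG-1a. CDC6, which loads that helicase, was lower by −0.71, −0.48, −0.48 and −0.60, and RRM2, a subunit of ribonucleotide reductase, by −0.51, −0.61, −0.33 and −0.48. FEN1, the flap endonuclease, was lower by −0.81, −0.39 and −0.75, and under 8AA in KG-1a it did not pass (−0.09).

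Genes of G2 and mitosis gave different counts in the lines. Of 21, 18 were lower and 0 higher in MV4-11 under 8CA at 24 h and 20 and 0 under 8AA, where 43.9% and 29.1% of all genes tested were called. In KG-1a 8 were lower and 5 higher under 8CA and 3 lower and 12 higher under 8AA, where 47.4% and 51.9% of all genes were called, the last count becoming 0 lower and 15 higher under library-size scaling. In KG-1a under 8CA at 8 h edgeR called 0 of 21, 6 had an unadjusted p under 0.05, and DESeq2 called 1. CENPF, a kinetochore protein, was lower at 24 h in MV4-11 (−0.21 under 8CA and −0.40 under 8AA) and higher in KG-1a (0.38 and 0.52). CCNB1, the mitotic cyclin B1, was lower in each of the 4 comparisons (−0.62, −0.45, −0.42 and −0.12), as was the kinase PLK1 (−0.56, −0.50, −0.28 and −0.18). CCNF was lower in MV4-11 (−0.50 and −0.48) and under 8CA in KG-1a (−0.49), and under 8AA in KG-1a it did not pass (−0.07).

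**Figure D5:**
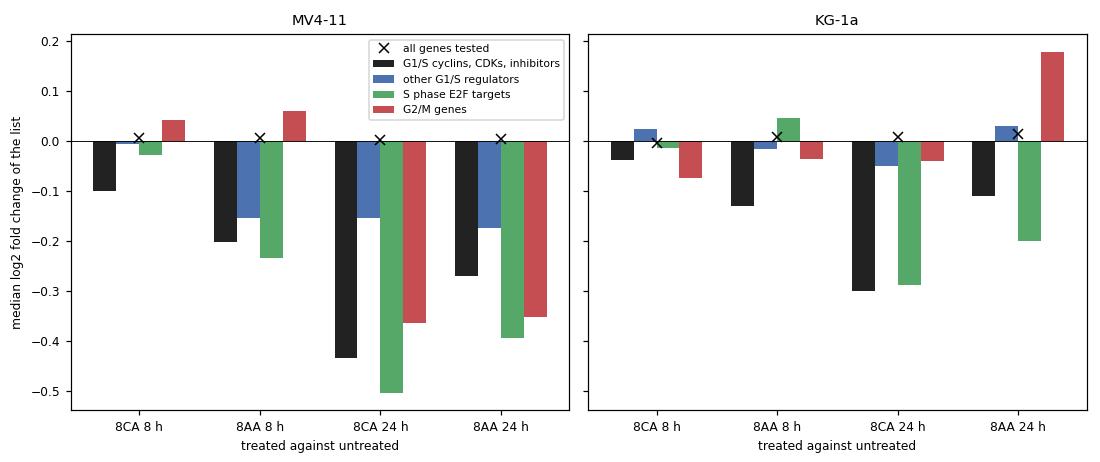
Median log2 fold change against untreated cells of the 10 genes (black), the other G1/S regulators (blue), S phase E2F targets (green) and G2/M genes (red), with a cross for the median of all genes tested, for each line, analog and time. The green bars lie below 0 in every comparison at 24 h, from −0.50 to −0.20, while the red bar is at −0.35 in MV4-11 and 0.18 in KG-1a under 8AA.

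Genes with a pattern like that of 8 of the 10 were named by the root mean square difference over the 8 log2 fold changes, among 9877 genes expressed in both lines. Nearest to CCNA2 were KNSTRN (0.0431) and CDK1 (0.0584), and nearest to CCNE2 were FEN1 (0.14) and PHACTR3 (0.141). CCNE1 lay nearest to HSPE1 (0.0982) and FASN (0.128) and CCND3 to SLC16A3 (0.0717) and SLC20A1 (0.0888). CCND2 lay nearest to MYCBP2 (0.0793) and PMS1 (0.091), CDK6 to PURB (0.0423) and ZNF22 (0.0462), CDKN1B to MITD1 (0.0435) and NT5C2 (0.0492), and CDKN2C to TECR (0.0496) and IDH2 (0.0568). Distances are smaller for genes that change little, and the 8 fold changes are not independent, since comparisons of a line and time share untreated libraries.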

How the data were processed

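RNA of 24 libraries from 2 cell lines was extracted with a column kit and sequenced. The values used are the deposited counts, which the authors made as whole reads per gene and did not normalize. The submitters' processing notes name Trimmomatic, STAR 2.6.0, HTSeq 0.11.1 and edgeR, and the builds hg19 and hg38 with no role given. The gene starts in the table are not those of GRCh38 (802 of 21885 genes start within 1000 bases of the GRCh38.p14 start), so deposited coordinates and the RefSeq windows are on different builds. The sources used here give neither the annotation nor the use of strand in counting.

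Genes were filtered with filterByExpr (minimum count 10), scaled by TMM and tested with edgeR 4.0.16 (quasi-likelihood F test, two-sided) in R 4.3.3, with 1 fit to the 12 libraries of each line (12800 genes in MV4-11, 12711 in KG-1a) and 1 fit to all 24 (14055 genes) for differences between lines. The fitted biological coefficient of variation was 0.0422 and 0.0418. P-values were adjusted by Benjamini-Hochberg over all genes tested, a call is an adjusted p below 0.05, and the SE is the log2 fold change divided by the square root of F. RPKM used the deposited exon lengths. Alternatives were 3 other scalings, other filters on low counts, DESeq2 1.42.0, the letter of the library as a block, fits to 6 or 24 libraries and leaving out each library. Scripts were tested on simulated data.

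The 10 genes and the 3 gene lists were chosen with earlier results of these data known. All 10 genes are named, all other G1/S regulators could be, and of the S phase and G2/M lists the 4 with the largest mean absolute change at 24 h are. For each of the 10, the 2 genes nearest over the 8 changes are named, among those with a mean log2 CPM of at least 1 in each line. Those of CDK2 and CDK4 are not reported here.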

Additional observations from a re-analysis of the deposited data

Results flagged for a closer look

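The results listed here are changes that differed between times or between cell lines by a test of the difference itself, with values as log2 differences and adjusted p-values over all genes by edgeR's quasi-likelihood test.

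With 8CA in MV4-11, the change at 24 h differed from that at 8 h (24 h minus 8 h) for CCNA2 (−0.50), CCND2 (0.55), CCND3 (−0.41), CCNE1 (−0.59), CDK2 (−0.67), CDK4 (−0.27) and CDKN2C (−0.47). The call was lost for CDK4 in 6 of the 8 fits without 1 library (adjusted p 0.057 to 0.156). With 8AA in MV4-11 it differed for CCNA2 (−0.31) and CDK2 (−0.30), and the call was lost for CCNA2 in 7 of the 8 fits without 1 library (adjusted p 0.0582 to 0.216) and CDK2 in 7 of the 8 fits without 1 library (adjusted p 0.0551 to 0.165). CCNE1 differed between the times by −0.59 with 8CA, while with 8AA in MV4-11 the difference was 0.06 (95% interval −0.14 to 0.26). Other alternatives lost calls too. With 8AA, CCNA2 was lost with DESeq2's size factors (edgeR, adjusted p = 0.0514), library size only (0.074) and upper-quartile scaling (0.0501), and CDK2 by DESeq2 (0.1). With 8CA, CDK4 was lost with all 24 libraries in the fit (edgeR, adjusted p = 0.0674).

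With 8CA in KG-1a the times differed for CCNA2 (−0.28), CCND2 (0.24), CCNE1 (−1.07), CCNE2 (−0.66), CDK2 (−0.33) and CDKN2C (−0.20). The call was lost for CCND2 in 5 of the 8 fits without 1 library (adjusted p 0.05002 to 0.106), CDK2 in 4 of the 8 fits without 1 library (adjusted p 0.0797 to 0.123) and CDKN2C in 8 of the 8 fits without 1 library (adjusted p 0.0661 to 0.139). With 8AA in KG-1a they differed for CCNE1 (−0.77), CCNE2 (−0.47), CDK2 (−0.32), CDK4 (−0.40) and CDKN1B (0.30), and the call was lost for CDK2 in 4 of the 8 fits without 1 library (adjusted p 0.062 to 0.136), CDK4 in 1 of the 8 fits without 1 library (adjusted p 0.0502) and CDKN1B in 7 of the 8 fits without 1 library (adjusted p 0.0534 to 0.172). CCNE1 and CCNE2 kept theirs without each library with both analogs in KG-1a. With 8AA this does not show firmer calls, since a fit without 1 of the 24 h pair drops its disagreement from the spread. CDKN2C with 8CA was also lost with DESeq2's size factors (edgeR, adjusted p = 0.0538), upper-quartile scaling (0.112), both other filters on low counts (0.0501 and 0.0503) and by DESeq2 (0.0863). With 8AA, CDK2 was lost with library size only (edgeR, adjusted p = 0.0634), upper-quartile scaling (0.0729) and by DESeq2 (0.073). CDKN1B was lost by DESeq2 (0.0825) and with all 24 libraries in the fit (edgeR, 0.163).

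Between the lines, the response in MV4-11 minus that in KG-1a differed with 8AA at 8 h for CCND3 (0.37), CCNE2 (−0.80) and CDK2 (−0.31). The call was lost for CCND3 in 1 of the 8 fits without 1 library (adjusted p 0.0683) and CDK2 in 5 of the 8 fits without 1 library (adjusted p 0.0518 to 0.104). With 8CA at 24 h it differed for CCNA2 (−0.27), CCND2 (0.23) and CDK2 (−0.30), and the call was lost for CCNA2 in 4 of the 8 fits without 1 library (adjusted p 0.0751 to 0.121), CCND2 in 6 of the 8 fits without 1 library (adjusted p 0.0655 to 0.173) and CDK2 in 6 of the 8 fits without 1 library (adjusted p 0.053 to 0.169). With 8AA at 24 h it differed for CCNA2 (−0.40), CCND2 (0.36), CCNE1 (0.55), CDK2 (−0.31), CDK4 (0.37) and CDKN2C (−0.34), and the call was lost for CDK2 in 2 of the 8 fits without 1 library (adjusted p 0.0832 to 0.0972) and CDK4 in 2 of the 8 fits without 1 library (adjusted p 0.0606 to 0.175). CCND2 with 8CA at 24 h was also lost under upper-quartile scaling (edgeR, adjusted p = 0.0579), with no filter on low counts (0.124) and by DESeq2 (0.0543). The 8CA and 8AA comparisons of a line and time share their untreated libraries, and the KG-1a libraries with 8AA at 24 h are the pair that stood apart.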

How the results depend on the processing

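Of 3260 log2 differences of the 10 genes under the alternatives, 3048 kept their side of the threshold. Of the rest, 169 lost their call and 42 gained one. A reversal was counted only where the main value or the alternative was called, and 1 was found. That was CDK6 in KG-1a with 8AA at 24 h, at −0.16 without 8AA replicate B and 0.31 without 8AA replicate A. Differences called in neither could change direction, as CDKN1B in MV4-11 with 8CA at 8 h did (−0.19 to 0.17). In KG-1a with 8CA at 8 h the count of called genes was 1 with only the 6 libraries of that time in the fit. Between the analogs in MV4-11 at 8 h it was 2 with no filter on low counts, 0 by DESeq2, 0 with all 24 libraries in the fit and 0 with 6. For 24 h against 8 h with 8AA in MV4-11 it was 1 with DESeq2's size factors, 1 with library size only, 1 with upper-quartile scaling and 1 by DESeq2, and in KG-1a 3 by DESeq2. The causes were not tested. Letters A and B share no stated origin, so same-lettered libraries were not taken as pairs. Their deviations correlated above 0.1 in 6 of 15 pairs of groups in MV4-11 and 2 of 15 in KG-1a. Whether a letter marks a shared origin was not tested. With the letter as a replicate block, the count between the analogs in MV4-11 at 8 h was 3, and every other count stayed within 1.5 times its value. The block added calls for CCNE2 in MV4-11 with 8CA at 8 h (−0.23, edgeR adjusted p = 0.0246), where the 3 pairs of groups at 8 h correlated at 0.132 to 0.159, and between the analogs there for CCNE2 at 8 h (0.0123) and 24 h (0.0358) and CDK4 at 8 h (0.0379) and 24 h (0.0295). For 24 h against 8 h it added CDK6 in MV4-11 with 8CA (0.30, edgeR adjusted p = 0.0145), CDKN2C there with 8AA (−0.31, 0.0406) and CCND3 in KG-1a with 8CA (−0.23, 0.0472).

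With 1 library left out, the counts ranged from 1 to 2 in MV4-11 with 8CA at 8 h (lowest without MV4-11 untreated 8 h replicate B (1) and MV4-11 8CA 8 h replicate A (1)), 4 to 6 with 8AA at 8 h (lowest without MV4-11 8AA 8 h replicate B (4)), 5 to 6 in KG-1a with 8AA at 8 h (lowest without KG-1a untreated 8 h replicate B (5) and KG-1a 8AA 8 h replicate B (5)) and 0 to 1 between the analogs in MV4-11 at 8 h. For 24 h against 8 h they ranged from 0 to 1 under 8AA in MV4-11, 3 to 5 under 8CA in KG-1a (lowest without KG-1a 8CA 8 h replicate A (3), KG-1a untreated 24 h replicate B (3) and KG-1a 8CA 24 h replicate B (3)) and 2 to 6 with 8AA (lowest without KG-1a untreated 8 h replicate B (3), KG-1a 8AA 8 h replicate A (2), KG-1a 8AA 8 h replicate B (3) and KG-1a untreated 24 h replicate B (3)), and between the lines with 8CA at 24 h from 0 to 2. A library left out leaves its group with 1 library, assumed to vary like the other groups.

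The share of all calls that were lower moved by over 10 percentage points in 11 of 24 comparisons under library size only, most in MV4-11 with 8CA at 8 h (55.8% to 38.3%), in 9 under upper-quartile scaling, most in KG-1a with 8AA for 24 h against 8 h (58.3% to 39.2%), and in 0 under DESeq2's size factors. The median over all genes moved by over 0.1 once, by 0.109, between untreated lines at 24 h under library size only. With 2 libraries a group, the printed 95% intervals give the range of differences that a missed call leaves.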
